A study of Mus musculus with 6 samples.

Results

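The p53 pathway, the BCL2 family, the caspases and the inflammasome parts of BV2 cells were taken as 1 group of 46 listed genes. Members were chosen by name, as the rows whose Ensembl gene identifier, with its version dropped, carries a listed symbol in GENCODE M21. Of the 46, 43 had a row among the 12327 genes of the deposited table. Phlda3, Bik and Pycard had none, so their expression was not analysed here. All 43 passed the filter on low values, which asked that at least 3 of the 6 libraries reach 0.5 FPKM (fragment counts scaled by transcript length and library size).

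BV2 is an immortalised mouse microglial line. The knockdown group (3 libraries, genotype GCH1-KD) carried an adenoviral short hairpin RNA against GCH1, GTP cyclohydrolase I, for 48 hours, and the control group (3 libraries) is labelled negative control. The labels call the controls both Ad-NC and wild type, and they describe infection only for the knockdown cells. Whether the controls received a virus is therefore unclear, and an effect of the virus and one of the hairpin cannot be told apart. All cells belong to 1 subline, and the labels are silent on whether replicate libraries stem from separate cultures. The p-values therefore weigh a difference against the scatter of these libraries alone, which may be technical. Expression was measured by RNA sequencing of total RNA after ribosomal depletion, and the comparison asks which transcripts differ when Gch1 is knocked down.

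Gch1 was at 6.89, 7.22 and 7.23 FPKM in the controls and 3.20, 2.93 and 3.43 FPKM in the knockdown libraries, 44.8% of control, as the labels have it. Estimated depth was 5.25 to 5.58 Gb of aligned sequence in the controls and 6.32 to 7.61 Gb in the knockdown libraries, with no overlap. Of 12 microglial markers 11 had a row (P2ry12 did not), and they summed to between 1038 and 1060 FPKM in the controls and 992 and 1052 FPKM in the knockdown libraries. Markers of neurons were without a row (0 of 5), as were Gfap, Mbp, Pecam1, Cdh5, Col1a1 and Cd3e for other cell types. Of those other lists, the astrocyte marker Aldoc was at 24.7 to 28.6 FPKM and the oligodendrocyte marker Cnp at 4.89 to 5.80 FPKM over the 6 libraries. The endothelial markers Flt1 and Vwf together were at 26.2 to 28.8 FPKM, the mural marker Acta2 was at 0.394 to 0.650 FPKM and the lymphocyte marker Lck at 0.561 to 1.003 FPKM, so these cell types had 1 or 2 listed markers each with a row.

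The p53 protein is a transcription factor that is held at a low level by the ubiquitin ligase MDM2 and its relative MDM4, and that, when stabilised, induces genes of cell cycle arrest, repair and death. BCL2 family proteins set whether the outer mitochondrial membrane opens: BAX and BAK1 form the pore, BCL2, BCL-XL and MCL1 restrain them, and the BH3-only proteins release that restraint. Cytochrome c then assembles APAF1 with caspase 9, while death receptors start caspase 8, and in microglia the NLRP3 inflammasome starts caspase 1, which cleaves interleukin precursors and the pore protein gasdermin D.

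The p53 protein binds DNA as a pair of 10-base units, and near-matches to its response element lie at the promoters of 4 members, which are shown because the arrest and death targets below are read as p53 targets. The search covered 250 bases before to 50 after each RefSeq start (GRCm38.p6), allowed at most 1 base between the units and 2 mismatches in 20 positions, and required the C and G of each core; the motif reads the same on both strands, and no other motif was searched. Capitals mark the core of each unit, and each sequence runs 5′ to 3′ on the gene's strand.
Cdkn1a (chr17:29090928-29090947, plus strand): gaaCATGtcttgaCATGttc
Ccng1 (chr11:40755462-40755481, minus strand): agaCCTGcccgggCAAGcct
Gtse1 (chr15:85859945-85859964, plus strand): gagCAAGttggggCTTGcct
Bax (chr7:45467079-45467099, minus strand): aggCAAGctttgaaCTTGcgg
The first 3 have 1 mismatch and Bax has 2. The Cdkn1a element begins 51 bases before one of its RefSeq starts, and that of Gtse1 begins 1 base before a start. Such a match was found in 4 of 58 promoters of 41 listed genes (6.90%), which were searched whether or not they had an expression row. Over all promoters of the promoter table it was found in 224 of 32851 (0.68%). Members without a promoter in that table were not searched. The listed genes taken as direct p53 targets were the arrest and repair group with Mdm2, Bax, Bbc3 and Pmaip1. Of their 17 promoters, from 11 genes, 4 had a match (23.5%), and the others had none within the window searched. That set was chosen by name as p53 targets, so its share is no evidence for the naming. Elements outside the window were not searched. A match is a string of letters and not a measured binding site.

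None of the 43 members passed the test in either direction after 48 hours of the hairpin, a count of 0 by limma at a Benjamini-Hochberg (BH) adjusted p of 0.05 over all 12222 genes tested. Over those genes 10 were called (0.0818%, with 0.0245% higher and 0.0573% lower), so a group of this size would hold about none at that rate. The smallest adjusted p among members was 0.292, for Plk2. At an unadjusted p under 0.05 there were 3 members (6.98%), Casp2 on the higher side and Plk2 and Ripk1 on the lower side, against 11.3% of all genes (6.47% higher and 4.82% lower). The 3 knockdown libraries lay wholly above the controls in 2 members, Casp2 and Mdm4, and wholly below in 3, Plk2, Cdkn1a and Bcl2l1. These 5 are 11.6% of members, against 18.4% of all genes (9.99% higher and 8.36% lower). The number depended on the scaling. It was 4 with median-of-ratios scaling and with quantile normalization (9.30% of members, against 18.7% of all genes in each). With GC content and length removed it was 3 (6.98% against 18.5%). With 1 library left out, when fewer values have to separate, the number was 7 to 13 (16.3% to 30.2% of members), against 27.0% to 33.9% of all genes. It was highest without control 2, at 13 (30.2%, against 33.9% of all genes), and without control 3, at 11 (25.6% against 27.4%). The number at an unadjusted p under 0.05 by limma was then 3 to 5, with 5 without knockdown 2 (11.6%, against 9.26% of all genes). For a single gene the two-sided exact permutation test over 3 against 3 libraries cannot give less than 0.1.

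The members lay close to control on both sides. The median log2 fold change, knockdown minus control on log2(FPKM + 1), was 0.01, as it was over all genes (0.01), and 22 members were above 0 and 21 below, a split that quantile normalization turned to 19 and 24 and removal of GC content and length to 21 and 22. The median size of the change regardless of sign was 0.06 for the members and 0.07 for all genes. The 95% interval of the fold change, not adjusted for the number of genes, lay inside 1.5-fold in either direction for 40 of the 43 members, against 95.2% of all genes, and inside 1.25-fold for 35 members, against 76.4%. Folds and their intervals, here and below, are of FPKM + 1, which can draw genes of low level towards 1. The 3 members whose interval reached past 1.5-fold were Casp2 and 2 whose libraries scattered, Aen and Bcl2l2. With 6 bulk libraries, a change in the number of cells expressing a gene and a change in RNA per cell cannot be told apart.

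**Figure D1:**
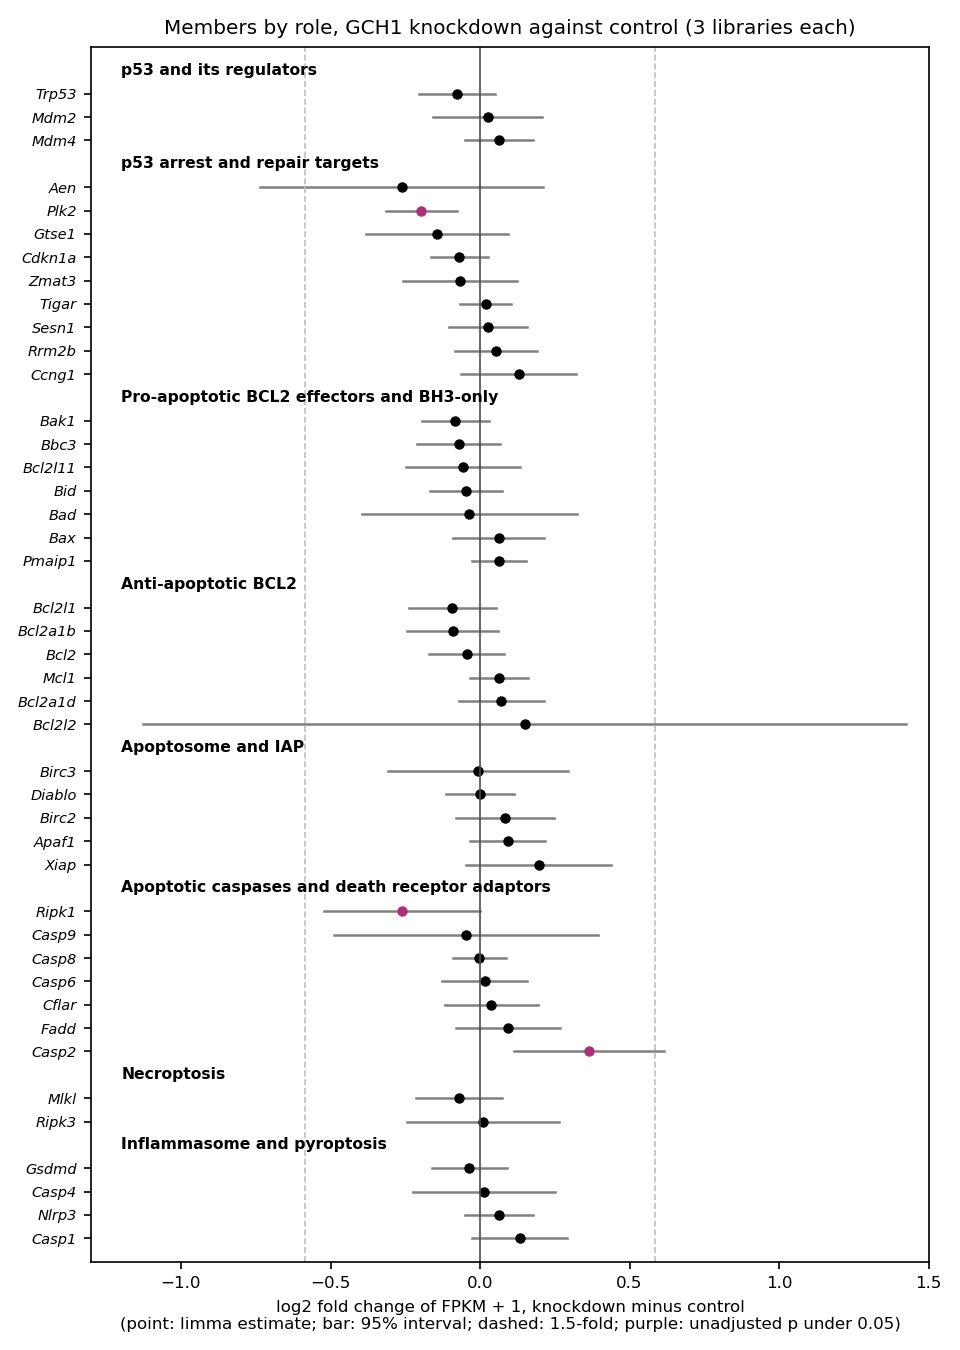
Log2 fold change of each of the 43 members, knockdown minus control on log2(FPKM + 1), grouped by role (x axis); points are limma estimates from 3 libraries a group and bars their 95% intervals. Most points lie within 0.1 of 0; Casp2 at 0.36 stands highest, and the bar of Bcl2l2 is the widest.

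At the top of the pathway, the transcripts of p53 itself and of both its inhibitors were present in every library. Trp53 (ENSMUSG00000059552.13; GRCm38 chromosome 11, 69580359 to 69591873, plus strand) was at 26.0, 24.8 and 27.0 FPKM in the controls and 22.9, 25.5 and 25.1 FPKM in the knockdown libraries. The groups overlap, since knockdown libraries 2 and 3 lie above control 2, and the log2 fold change was -0.08 (SE 0.05, BH adjusted p = 0.608 by limma). Mdm2, the ubiquitin ligase that p53 itself induces, was at 16.4, 17.1 and 14.2 FPKM in the controls and 15.4, 17.4 and 15.7 FPKM after knockdown. Control 3 was the lowest library and knockdown 2 the highest, with the rest between them, and the fold change was 1.02 (95% interval 0.897 to 1.154). Mdm4, which blocks the activation domain of p53, was at 5.50, 5.42 and 5.17 FPKM in the controls and 5.76, 5.64 and 5.57 FPKM in the knockdown libraries. All 3 knockdown libraries were above the controls, by a log2 fold change of 0.06 (SE 0.05, BH adjusted p = 0.634 by limma). In level the 3 genes kept the order Trp53, Mdm2, Mdm4 without overlap across libraries, and Mdm2 stood at 0.525 to 0.689 times Trp53.

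Among the arrest and repair targets the median log2 fold change was -0.07 over 9 genes, with 4 above 0 and 5 below, and 0 called. Cdkn1a (ENSMUSG00000023067.13; chromosome 17, 29090976 to 29100727, plus strand) encodes the cyclin-dependent kinase inhibitor p21, the best known arrest target. It was at 20.9, 20.3 and 21.3 FPKM in the controls and 20.2, 19.1 and 20.05 FPKM in the knockdown libraries. The groups do not overlap, but the nearest libraries, control 2 and knockdown 1, differ by less than the SD within either group (0.506 and 0.566 FPKM). Its log2 fold change was -0.07 (SE 0.04, BH adjusted p = 0.538 by limma), with a fold between 0.892 and 1.02.

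Plk2, a polo-like kinase that also acts in centriole duplication, was by far the most abundant of the arrest targets and had the smallest p of all members. Plk2 (ENSMUSG00000021701.8; chromosome 13, 110395046 to 110400844, plus strand) was at 104, 105 and 93.7 FPKM in the controls and 87.3, 90.1 and 86.3 FPKM after knockdown, 87.1% of control. All 3 knockdown libraries lay below the lowest control, library 3, which itself stood closer to them than to the other controls. The log2 fold change was -0.20 (SE 0.05), with a limma unadjusted p of 0.00609 and a BH adjusted p of 0.292. Its unadjusted p was under 0.05 in each of the 18 fits run, and its adjusted p was in none.

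The other arrest targets gave no gene with a limma unadjusted p under 0.05. Ccng1, cyclin G1, had the highest log2 fold change of the role group, 0.13 (SE 0.08). It was at 13.1, 13.4 and 10.7 FPKM in the controls and 14.1, 13.0 and 13.7 FPKM after knockdown, so that control 3 alone stands apart and the rest overlap. Aen, a nuclease induced by p53, had the lowest, -0.26 (SE 0.20). It was at 2.26, 1.88 and 2.02 FPKM in the controls and 1.91, 2.14 and 0.794 FPKM after knockdown. Knockdown library 3 alone was low, and without it the log2 fold change of Aen was -0.01. Gtse1, a regulator of p53 in the G2 phase, was at 6.71, 7.36 and 7.43 FPKM in the controls and 5.53, 7.56 and 6.20 FPKM after knockdown, overlapping through knockdown 2. Sestrin 1 (Sesn1), the RNA-binding gene Zmat3, the ribonucleotide reductase subunit Rrm2b and the metabolic phosphatase Tigar were at 102%, 93.7%, 105% and 101% of control. Tigar was among the steadiest members, between 15.7 and 16.4 FPKM over all 6 libraries.

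Of the 3 targets with a near-match 1 mismatch away, the fold change was 0.953 for Cdkn1a, 0.905 for Gtse1 and 1.09 for Ccng1. For Bax, with 2 mismatches, it was 1.04. None of these 4 passed, and they did not lie on 1 side.

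**Figure D2:**
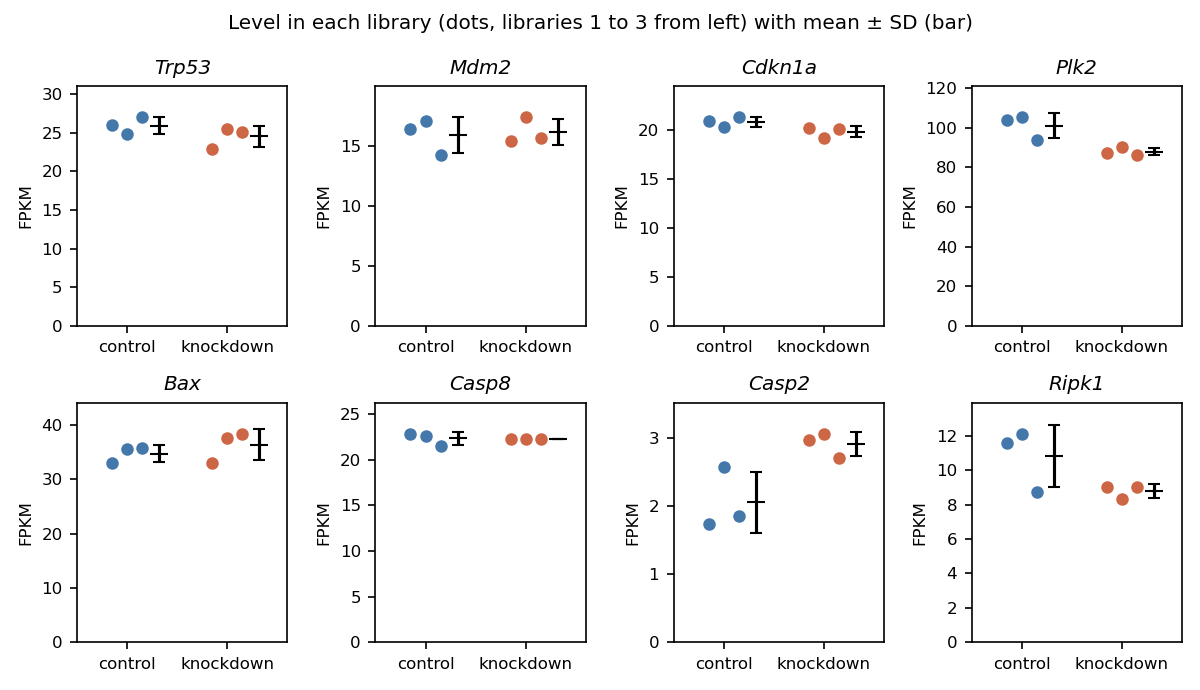
FPKM of 8 members in each library (y axes from 0; dots are libraries 1 to 3 of each group, bars mean ± SD, n = 3). The groups of Plk2, Cdkn1a and Casp2 do not overlap, those of Trp53, Mdm2, Bax, Casp8 and Ripk1 do.

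Within the pro-apoptotic BCL2 members, the pore formers and BH3-only genes, 5 of 7 were below 0 and 2 above, with a median log2 fold change of -0.05 and no gene called. Bax was the most abundant, at 32.9, 35.5 and 35.6 FPKM in the controls and 33.0, 37.6 and 38.3 FPKM after knockdown. Its libraries overlap, since both groups have 1 library near 33 FPKM, and the fold was 1.04 (95% interval 0.940 to 1.16). Bak1, the other pore former, was at 94.2% of control and had the lowest log2 fold change of the 7, -0.08 (SE 0.05). It stood at 20.8, 20.8 and 21.9 FPKM in the controls and 19.1, 19.6 and 21.02 FPKM after knockdown, the last of these between the controls.

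The BH3-only genes that p53 induces, Bbc3 and Pmaip1, differed in the sign of their small changes. Bbc3, which encodes PUMA, was at 11.7, 10.4 and 11.6 FPKM in the controls and 10.2, 11.2 and 10.6 FPKM after knockdown. Pmaip1, which encodes NOXA, a selective partner of MCL1, was at 21.4, 22.3 and 21.3 FPKM in the controls and 22.2, 22.9 and 23.0 FPKM after knockdown. Both overlap between the groups, Bbc3 through control 2 and Pmaip1 through control 2 as well. Their log2 fold changes were -0.07 (SE 0.06) and 0.06 (SE 0.04). Bcl2l11, which encodes BIM and answers to growth factor withdrawal, was at 6.32, 6.75 and 6.01 FPKM in the controls and 6.32, 5.33 and 6.61 FPKM after knockdown, with knockdown 2 the lowest. Bid, the link from caspase 8 to mitochondria, was at 96.5% of control, and Bad, which growth factor signalling inactivates, at 98.2%, with a spread of 3.72 to 6.07 FPKM over the 6 libraries. Across libraries Bax did not overlap with any other gene of the 7, while Bbc3 and Bid could not be ordered.

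Among the anti-apoptotic members Mcl1 dominated. Mcl1 (ENSMUSG00000038612.16; chromosome 3, 95658788 to 95663176, plus strand) was at 166, 170 and 157 FPKM in the controls and 176, 172 and 167 FPKM after knockdown. Knockdown library 3 lies below control 2, so the groups overlap, and the log2 fold change was 0.06 (SE 0.04, BH adjusted p = 0.588 by limma). Bcl2l1, which encodes BCL-XL, was at 20.7, 18.05 and 18.01 FPKM in the controls and 17.98, 17.04 and 17.98 FPKM after knockdown. Its groups do not overlap, but controls 2 and 3 and knockdowns 1 and 3 are nearly equal and only control 1 is higher; the log2 fold change was -0.09 (SE 0.06, BH adjusted p = 0.594 by limma). Bcl2 itself was at 8.38, 8.42 and 7.65 FPKM in the controls and 8.17, 7.74 and 7.70 FPKM after knockdown, overlapping throughout. By level, Mcl1 stood above Bcl2a1b, Bcl2a1b above Bcl2l1 and Bcl2l1 above Bcl2a1d in every library, while Bcl2 and Bcl2l2 overlapped. The places of Bcl2a1b and Bcl2a1d in this order rest on how reads were split between near-identical copies, which is uncertain.

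Bcl2a1b and Bcl2a1d encode A1, a short-lived survival protein of myeloid cells induced by NF-kB, and are near-identical copies on chromosome 9. Their coding sequences have 516 bases each and differ at 6 (98.8% identity), with a longest shared run of 217 bases, so reads can fit both copies and the split of counts between them is uncertain. The first 30 coding bases show how little separates them; capitals mark the only difference there, G4T counted from the start codon with Bcl2a1b as the reference.
Bcl2a1b: atgGctgagtacgagttcatgtatatccac
Bcl2a1d: atgTctgagtacgagttcatgtatatccac
Bcl2a1b was at 27.5, 32.9 and 31.5 FPKM in the controls and 28.3, 29.0 and 28.5 FPKM after knockdown. Bcl2a1d was at 8.76, 10.1 and 8.76 FPKM in the controls and 9.73, 9.76 and 9.63 FPKM after knockdown. In both genes the knockdown libraries fall inside the range of the controls, with log2 fold changes of -0.09 (SE 0.07) and 0.07 (SE 0.06). A further copy, Bcl2a1a, was at a mean of 1.89 FPKM in control and 1.99 FPKM in knockdown libraries. Its coding sequence shares a run of 314 bases with that of Bcl2a1d. The annotated gene Gm29094 (89199379 to 89215471) overlaps Bcl2a1b on the same strand. It was at a mean of 1.35 FPKM in control and 1.81 FPKM in knockdown libraries, and its part in the Bcl2a1b values was not tested.

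Bcl2l2, which encodes BCL-W, was the most variable member, and its scatter did not follow the groups. Bcl2l2 (ENSMUSG00000089682.10; chromosome 14, 54883377 to 54888234, plus strand) was at 9.22, 1.59 and 8.99 FPKM in the controls and 5.65, 9.50 and 4.17 FPKM after knockdown. Control 2 is the lowest library and knockdown 2 the highest, and the fold change has a 95% interval of 0.458 to 2.69. The annotation holds a second gene on the same strand, Gm20521 (54883441 to 54898137), that spans Bcl2l2 and the next gene, Pabpn1. Gm20521 was at 9.51, 2.26 and 2.33 FPKM in the controls and 1.43, 2.502 and 2.06 FPKM after knockdown, high in control 1 alone. Pabpn1, a poly(A)-binding protein gene, was steady at 17.0 to 21.4 FPKM. Since the genes overlap on 1 strand, how the authors' counting split reads between Bcl2l2 and Gm20521 affects both values, and its part in the scatter was not tested.

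**Figure D3:**
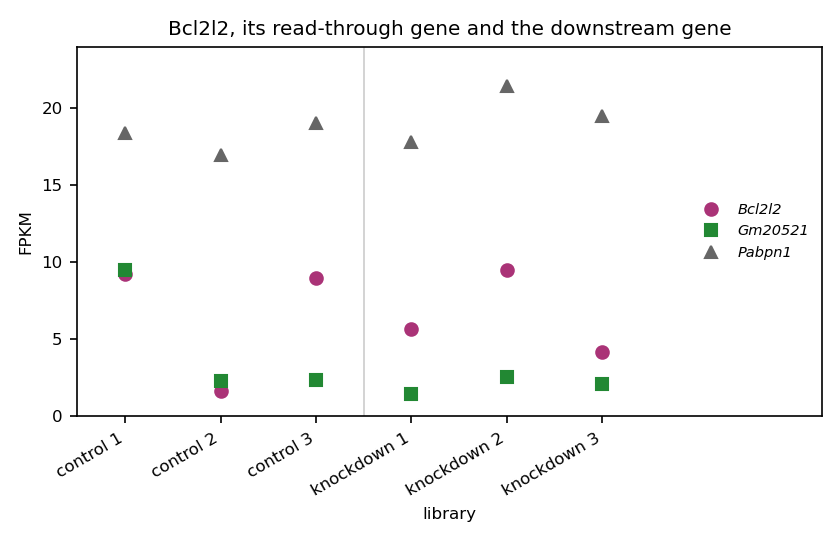
FPKM of Bcl2l2, the overlapping gene Gm20521 and the downstream gene Pabpn1 in each of the 6 libraries (x axis; y axis from 0). Bcl2l2 ranges from 1.59 to 9.50 FPKM with no relation to the groups, and Gm20521 is high in control 1 alone.

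**Figure D4:**
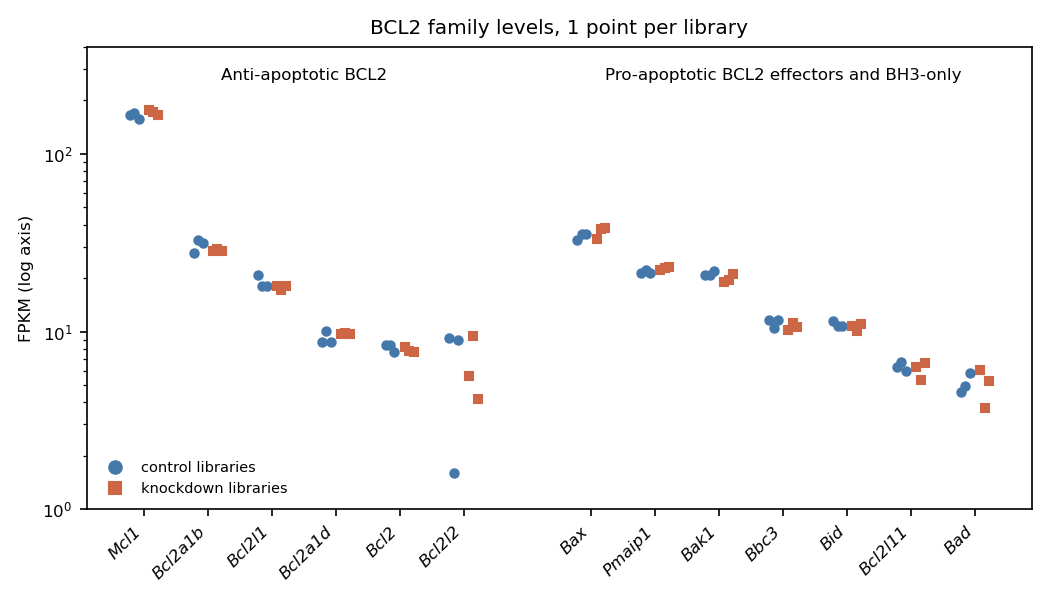
FPKM on a log axis of the 13 BCL2 family members with a row, 1 point for each library. Control and knockdown points lie together for each gene except Bcl2l2, whose points spread within both groups.

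Ratios of opposing partners within a library moved by about as much as they varied within a group. Bax over Bcl2 was 3.93, 4.21 and 4.66 in the controls and 4.04, 4.86 and 4.98 after knockdown, and knockdown 1 lay between controls 1 and 2. Bax over Bcl2l1 was 1.59, 1.96 and 1.98 in the controls and 1.84, 2.21 and 2.13 after knockdown, overlapping through knockdown 1. Bbc3 over Mcl1 was 0.0704, 0.0616 and 0.0739 in the controls and 0.0577, 0.0649 and 0.0636 after knockdown, overlapping through control 2. The differences in mean log2 ratio were 0.11, 0.16 and -0.14, against SDs within groups of 0.15, 0.16 and 0.12. With 1 library left out these differences ran from 0.06 to 0.21, 0.06 to 0.24 and -0.22 to -0.09, the smallest of each without control 1, control 1 and control 3. They are given as descriptions with no test.

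The apoptosome and inhibitor of apoptosis (IAP) genes had a median log2 fold change of 0.08 over 5 genes, none of them called. Apaf1, the scaffold of the apoptosome, was at 6.64, 6.88 and 6.71 FPKM in the controls and 7.505, 6.80 and 7.47 FPKM after knockdown, overlapping through knockdown 2. Xiap, which inhibits caspases directly, was at 3.91, 4.19 and 3.43 FPKM in the controls and 5.11, 3.83 and 4.74 FPKM after knockdown. Knockdown libraries 1 and 3 are the highest and knockdown 2 lies among the controls; the log2 fold change of 0.20 (SE 0.10) was the highest of the role group, with a limma BH adjusted p of 0.512. Birc3, or cIAP2, a ubiquitin ligase of the TNF receptor complex, had the lowest, -0.01. It was at 4.34, 6.03 and 4.41 FPKM in the controls and 5.47, 4.96 and 4.19 FPKM after knockdown, with the highest and the lowest library in different groups. Birc2, or cIAP1, its neighbour on chromosome 9, was at 107% of control. Diablo, which relieves caspases from IAPs, was flat, at 3.96 to 4.07 FPKM in all 6 libraries.

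The apoptotic caspases and death receptor adaptors held the highest log2 fold change of any member, in Casp2, and the next to lowest, in Ripk1. Casp2 (ENSMUSG00000029863.13; chromosome 6, 42264985 to 42282508, plus strand), an initiator activated in the PIDD1 complex after DNA damage or extra centrosomes, was at 1.75, 2.58 and 1.86 FPKM in the controls. It was at 2.97, 3.07 and 2.71 FPKM in the knockdown libraries, all above the highest control, library 2, which stands nearer to them than to the other controls. The log2 fold change was 0.36 (SE 0.11), the fold of FPKM + 1 was 1.29 (95% interval 1.08 to 1.53) and mean FPKM was 142% of control. The limma unadjusted p was 0.0106 and the BH adjusted p 0.326. Its adjusted p was lowest without control 2, at 0.141, and the log2 fold change then was 0.48. Casp2 is a gene of low level, and estimated depth also differed between the groups without overlap; its part in this value was not tested.

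Ripk1 (ENSMUSG00000021408.15; chromosome 13, 34002363 to 34037147, plus strand), the kinase that carries TNF signals to survival or death, was at 11.6, 12.1 and 8.75 FPKM in the controls and 8.998, 8.34 and 9.02 FPKM after knockdown. Controls 1 and 2 are high and control 3 lies among the knockdown libraries. The log2 fold change was -0.26 (SE 0.11), with a limma unadjusted p of 0.0497 and a BH adjusted p of 0.442. Without control 3 the log2 fold change was -0.39 and the adjusted p 0.182, and Ripk1 had an unadjusted p under 0.05 in 7 of the 18 fits. Serpinb6a, on the other strand, overlaps Ripk1 in the annotation and was at 99.7% of control.

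Casp8, the initiator of the death receptor pathway, was flat. It was at 22.8, 22.6 and 21.5 FPKM in the controls and 22.3, 22.2 and 22.3 FPKM after knockdown, a fold of 0.998 (95% interval 0.938 to 1.06). Cflar, its catalytically inactive regulator c-FLIP, was at 19.6, 20.3 and 17.1 FPKM in the controls and 20.02, 19.0 and 19.5 FPKM after knockdown, and the ratio of Casp8 to Cflar was between 1.11 and 1.26 in all libraries. Casp9, the apoptosome's initiator, was at 6.14, 8.16 and 7.95 FPKM in the controls and 5.06, 7.83 and 8.93 FPKM after knockdown, with library 1 low in both groups. The adaptor Fadd, at a mean of 2.55 FPKM in control and 2.79 FPKM in knockdown libraries, and Casp6, at 1.59 and 1.62 FPKM, did not pass.

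For necroptosis, the kinase Ripk3 was low and its substrate Mlkl, which forms the membrane pore, was several times as abundant. Ripk3 was at 2.12, 2.003 and 1.83 FPKM in the controls and 1.56, 2.12 and 2.38 FPKM after knockdown, the knockdown libraries spanning the controls. Mlkl was at 16.3, 18.0 and 16.7 FPKM in the controls and 16.5, 14.95 and 17.1 FPKM after knockdown, also overlapping. Their log2 fold changes were 0.01 (SE 0.11) and -0.07 (SE 0.06).

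Of the inflammasome genes, 3 of 4 were above 0 and none was called. Casp1, which matures IL-1β and IL-18, was at 18.4, 17.2 and 15.6 FPKM in the controls and 19.9, 18.1 and 18.3 FPKM after knockdown. Knockdown 1 is the highest library and control 3 the lowest, control 1 lies above knockdowns 2 and 3, and the log2 fold change was 0.13 (SE 0.07, BH adjusted p = 0.502 by limma). The sensor Nlrp3 was at 18.1, 18.7 and 19.7 FPKM in the controls and 19.2, 20.6 and 19.3 FPKM after knockdown, with a fold between 0.965 and 1.13. Gsdmd, the gasdermin pore gene, was the most abundant of the 4, at 39.5, 43.4 and 44.1 FPKM in the controls and 39.5, 41.6 and 42.6 FPKM after knockdown, and had the lowest log2 fold change, -0.04 (SE 0.05). Casp4, the caspase that senses cytosolic lipopolysaccharide (caspase 11 in the mouse), was at a mean of 2.61 FPKM in control and 2.62 FPKM in knockdown libraries, with control 2 above all other libraries at 3.19 FPKM.

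Other genes of these pathways, 96 on 4 lists, had 81 measured members, and again 0 were called by limma (7 had an unadjusted p under 0.05, 2 higher and 5 lower, or 8.64% against the 11.3% of all genes). Their median log2 fold change was -0.02. Of the 26 measured genes listed as other p53 targets, Ccnd1, cyclin D1, came nearest. That list was drawn up by name, and whether p53 controls its genes in these cells was not tested. Ccnd1 was at 46.1, 45.3 and 45.9 FPKM in the controls and 38.1, 37.7 and 38.2 FPKM after knockdown. All its knockdown libraries lie well below the controls, with a log2 fold change of -0.26 and a limma BH adjusted p of 0.0718. Bcl6, a transcriptional repressor, was at -0.16 on the same scale (adjusted p = 0.344 by limma).

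Among 24 other apoptosis genes, 9 were above 0 and 15 below, with a median log2 fold change of -0.01. Of 16 other inflammasome and necroptosis genes, Txnip, which binds thioredoxin and is a reported NLRP3 partner, was at 200, 221 and 198 FPKM in the controls and 176, 161 and 180 FPKM after knockdown. Its groups do not overlap, with a log2 fold change of -0.26 (BH adjusted p = 0.269 by limma), while the inflammasome sensor Nlrc4 was at 0.18. Ninj1, which ruptures the plasma membrane late in lytic death, was at -0.16 and its groups overlapped. Of 15 upstream kinases and damage sensors, Cdkn2a, whose locus encodes the p53 activator ARF and the arrest protein INK4A, was the most abundant at 78.9, 71.3 and 79.1 FPKM in the controls. It was at 63.1, 68.5 and 70.7 FPKM after knockdown, just below the lowest control, with a log2 fold change of -0.18 (BH adjusted p = 0.36 by limma).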

How the data were processed

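The authors deposited 1 table of 12327 mouse genes by 6 libraries with no stated unit; its values behave as FPKM computed by the authors. The submitters' processing notes name HISAT2, StringTie, edgeR and the build hg38, without versions, while all identifiers are mouse. For strand setting and annotation release, nothing was given in the sources used here. Each gene in the table reaches a mean of 0.501 FPKM in at least 1 group. Symbols and GRCm38 coordinates came from GENCODE M21 (12300 identifiers matched). Depth was estimated from genes with a single transcript, where FPKM times length is a whole number of aligned bases within 0.1 for 65.4% to 77.1% of 1500 values (20.0% by chance). The 12222 genes with 3 or more libraries at 0.5 FPKM were fitted with limma 3.58.1 (R 4.3.3; mean-variance trend, no covariate) on log2(FPKM + 1), BH adjusted over all of them. The fit was also run on simulated data with normal noise whose SD followed the level of a gene alone. The outcome of that run is not given here. Every member is accounted for; values per library follow a fixed list of central genes plus members with an unadjusted p under 0.05 or extreme in their role group. In the other pathway lists, up to 6 genes with an unadjusted p under 0.05 could be named. Members and lists were chosen with earlier results of these data known. Alternatives were a replicate block, each library left out, filters, pseudocounts, scalings, moderation, and removal of GC content and length by loess (span 0.3). Promoter sequences are RefSeq's (GRCm38.p6); Bcl2a1 sequences are GENCODE's. Python 3.11.15 with pandas 2.3.3, numpy 2.4.6, Biopython 1.88 and matplotlib 3.10.9 was used.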

Additional observations from a re-analysis of the deposited data

How the results depend on the processing

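No member passed in any of the 17 alternatives, a count of 0 of 719 comparisons by limma, with 1 to 5 members at an unadjusted p under 0.05 and a smallest adjusted p of 0.141 (Casp2 without control 2). No gene of the other pathway lists passed either. Of the 43 members, 29 kept their sign in every fit. Over the members and the 7 pathway genes with an unadjusted p under 0.05 by limma, 33 of 837 single-gene comparisons had the other sign. None of these genes was called in the main fit, so no call could be reversed among them. The members' median log2 fold change was -0.037 with a mean of at least 5 FPKM, a filter that leaves 31 members, and stayed between -0.01 and 0.02 otherwise. Over all genes, 18 were called without control 2 and 6 without knockdown 2 or without knockdown 3, and 13 without control 3. The labels do not say whether the title numbers pair the libraries. Deviations of same-numbered libraries from their group means correlated at 0.09, 0.06 and 0.09 across genes. Each library correlated best with its own number, and differently numbered pairs were at -0.10 to 0.01. These values are small and do not settle whether the libraries are paired. With the replicate block 0 genes were called (1330 at an unadjusted p under 0.05) and Gch1 was at -0.96 (limma adjusted p = 0.0604); with the block and GC content and length removed, 0 (1321) and -0.96 (0.0702). With 1 library left out, 4 of the 8 partner ratios changed the sign of their difference, among them Mdm2 over Trp53 (-0.0012 to 0.19) and Casp9 over Xiap (-0.49 to 0.03).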

Other observations

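Wide scatter within 1 group or both, the latter as in Bcl2l2, was also seen in other genes of the pathway lists, which were picked out after their values were seen. Nek7, the kinase that licenses NLRP3, was at 3.94, 12.5 and 11.6 FPKM in the controls and 4.18, 4.04 and 12.4 FPKM after knockdown, so that 3 libraries sat near 4 FPKM and 3 near 12 FPKM. Tlr4, the lipopolysaccharide receptor, was at 1.54, 6.60 and 1.24 FPKM in the controls and 1.36, 1.03 and 1.45 FPKM after knockdown, high in control 2 alone. Their log2 fold changes, -0.42 (SE 0.49) and -0.63 (SE 0.43), were the lowest of the 81 pathway genes and did not pass (limma BH adjusted p = 0.773 and 0.6).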
